A study of Mus musculus with 9 samples.

Results

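A set of 9 genes of the systems through which nerves, hormones and the vessel wall act on the heart were followed in mouse heart RNA, chosen by name from a table of 54532 gene identifiers, of which all 9 were found. They are the adrenergic receptors Adrb1, Adra1a and Adra1b, the muscarinic receptor Chrm2, the angiotensin receptor Agtr1a, the converting enzyme Ace, the peptide Edn1 and its receptors Ednra and Ednrb. Reads were counted per gene in 9 libraries, with 3 libraries each of sham, MIRI and GXNI mice. All mice were male wild-type C57BL/6J animals aged 8 to 10 weeks, and each library came from the heart of 1 mouse. MIRI, myocardial ischemia/reperfusion injury, was produced by tying the left anterior descending coronary artery for 30 min and letting blood flow again for 24 h. In sham mice the chest was opened and the thread was passed around the artery without being tied. GXNI mice had the same ischemia and reperfusion and received 9 mL/kg of Guanxinning injection, a preparation of Danshen and Chuanxiong, through the tail vein, whereas sham and MIRI mice received saline. GXNI was given at 1 dose in these libraries, and hearts were taken at 1 time.

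Noradrenaline and adrenaline act in the heart through beta receptors, which raise cyclic AMP and the force and rate of the beat, and through alpha-1 receptors, which act through the G protein Gq and phospholipase C. Acetylcholine from the vagus nerve acts through the muscarinic receptor encoded by Chrm2, which lowers cyclic AMP and opens potassium channels that slow the beat. Angiotensin II, made by the enzyme encoded by Ace, and endothelin, the peptide encoded by Edn1, narrow vessels and promote growth of heart muscle and scarring through Gq-coupled receptors.

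The sequences just before the start of 3 of the genes are shown, because Chrm2 and Ednrb were the members called higher after reperfusion and Adra1b held a motif match beside a level that differed widely between reperfused hearts. They were taken from the RefSeq promoter table of GRCm38.p6, in which 7 of the 9 genes had an entry (not Adra1a and Agtr1a). Each has 250 bases and is written in the direction of the gene. Capitals mark a match to the AP-1 motif (TGANTCA, both strands), and 6.75% of all 32851 promoters of this length held one.
Chrm2, forward strand, chr6:36387834-36388083: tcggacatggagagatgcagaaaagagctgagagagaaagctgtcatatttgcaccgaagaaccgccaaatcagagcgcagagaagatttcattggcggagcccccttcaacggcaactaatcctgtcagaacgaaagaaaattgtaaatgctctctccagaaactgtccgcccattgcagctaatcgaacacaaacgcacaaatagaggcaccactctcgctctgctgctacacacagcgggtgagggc
Ednrb, reverse strand, chr14:103843702-103843951: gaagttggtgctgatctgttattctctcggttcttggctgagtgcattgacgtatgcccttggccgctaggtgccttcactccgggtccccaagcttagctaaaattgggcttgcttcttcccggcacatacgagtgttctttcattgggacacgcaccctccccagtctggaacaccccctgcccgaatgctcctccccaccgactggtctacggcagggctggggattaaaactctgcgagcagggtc
Adra1b, reverse strand, chr11:43901238-43901487: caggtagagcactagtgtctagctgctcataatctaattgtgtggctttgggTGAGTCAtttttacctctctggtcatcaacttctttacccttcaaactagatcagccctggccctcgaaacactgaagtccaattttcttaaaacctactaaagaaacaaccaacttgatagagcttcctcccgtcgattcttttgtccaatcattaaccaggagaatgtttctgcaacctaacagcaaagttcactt
The Chrm2 window lay within exons of the lincRNA 9330158H04Rik on the opposite strand, and the Ednrb window lay in an intron of a longer annotated Ednrb transcript. The match of Adra1b lay 198 to 192 bases before the start. Whether this match bears on the level of Adra1b was not tested. The other 4 motifs were searched on both strands. These were the cyclic AMP response element (TGACGTCA, in 1.55% of all promoters), the GATA motif (AGATAA, 9.99%), the core of the hypoxia response element (ACGTG, 16.6%) and the TATA box (TATAAA, 12.4%). None of the 5 motifs occurred in the windows of Chrm2 and Ednrb. Among the 7 windows the other match was a TATA box in that of Ace, on the reverse strand 31 to 26 bases before the start. The share of G and C was 50.0% before Chrm2, 56.8% before Ednrb and 41.6% before Adra1b, beside a median of 52.4% over all promoters.

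The total count was between 17119454 and 22811295 per library. Among the members the lowest count was 40, of Edn1 in the library labelled MIRI 2, and the highest 4141, of Chrm2. The labels give the cell type as cardiomyocytes. Cardiomyocyte genes were by far the most abundant of the marker lists (10 markers, 31229 to 48992 CPM summed per library). Genes of endothelial cells (8 markers, 698 to 1230 CPM), fibroblasts (7 markers, 509 to 1210 CPM) and macrophages (8 markers, 423 to 733 CPM) were present at lower levels in every library, so the libraries are described as heart tissue. CPM are counts scaled to the library total, after TMM normalization. By Spearman correlation over 15207 genes, the 3 sham libraries were each most similar to another sham library, whereas 0 of the 6 reperfused libraries were most similar to one of their own label. The library labelled MIRI 2 was closest to GXNI 1 (rho 0.982, and at most 0.939 with another MIRI library), and the library labelled GXNI 3 was closest to MIRI 3 (rho 0.987). GXNI 1 was closest to sham 1 (rho 0.984), GXNI 2 to MIRI 1 (rho 0.980), and MIRI 1 to GXNI 3 (rho 0.986). The labels of MIRI 2 and GXNI 3 may have been exchanged, which would change what GXNI against MIRI and either group against sham compare. The study reports that GXNI lowered Cxcr2 mRNA several-fold relative to MIRI. By the labels, its mean here was 37.4 ± 31.8 CPM (SD, n = 3) in MIRI and 31.0 ± 37.9 CPM (SD, n = 3) in GXNI mice. Among the reperfused libraries Cxcr2 was lowest in MIRI 2 (0.831 CPM) and highest in GXNI 3 (74.0 CPM). An exchange was not tested and cannot be told from the labels. Reperfused libraries are therefore named by their labels throughout, and the 6 reperfused libraries were compared with sham as 1 group as well. Results of members in GXNI against MIRI, and some over the 6 libraries, are also given without the libraries labelled MIRI 2 and GXNI 3. Results of the other pathway genes are given with all libraries only. The neutrophil markers also differed within labels. Their 8 genes summed to 28.7 to 53.8 CPM in sham, 675, 26.3 and 582 CPM in MIRI 1 to 3, and 47.2, 204 and 613 CPM in GXNI 1 to 3, with none at 0 in any library. A gene counts as called where it differed by 1.5-fold or more with an unadjusted p of 0.01 or less, which are the study's own limits.

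Adra1a, which encodes the alpha-1A adrenergic receptor, was the member with the lowest values after reperfusion relative to sham. It lies on the forward strand of chromosome 14 (GRCm38, 66635251 to 66771168). Its level was 32.3, 31.6 and 24.1 CPM in sham mice 1 to 3, 7.68, 12.3 and 3.34 CPM in MIRI 1 to 3, and 14.5, 8.08 and 4.88 CPM in GXNI 1 to 3. All 6 reperfused libraries were below all 3 sham libraries, and the lowest values were in MIRI 3 and GXNI 3. The mean was 29.3 ± 4.57 CPM (SD, n = 3) in sham, 7.77 ± 4.47 CPM (SD, n = 3) in MIRI and 9.15 ± 4.89 CPM (SD, n = 3) in GXNI mice. Compared with sham, Adra1a was 3.79-fold lower in MIRI mice (log2 fold change -1.92, standard error 0.43, unadjusted p = 0.00283, adjusted p = 0.0776 by edgeR's quasi-likelihood test with Benjamini-Hochberg adjustment). In GXNI mice it was 3.19-fold lower than in sham (log2 fold change -1.67, standard error 0.38, unadjusted p = 0.00327, adjusted p = 0.219 by the same edgeR test). Over the 6 reperfused libraries the log2 fold change was -1.80 (standard error 0.38, unadjusted p = 0.000878, adjusted p = 0.0822, edgeR), and a two-sided exact permutation test over libraries gave p = 0.0119, the smallest that 6 against 3 allows. Adra1a was called lower in this comparison also when any 1 of the 9 libraries was left out, and without MIRI 2 and GXNI 3 together (-1.80, standard error 0.40, unadjusted p = 0.00187). The call in MIRI against sham was lost without sham 2 (-1.87, unadjusted p = 0.0103) or MIRI 1 (-1.92, unadjusted p = 0.0140), and that in GXNI against sham without sham 1 (-1.60), sham 2 (-1.62) or GXNI 2 (-1.59). With DESeq2 the adjusted p was 0.000369 in MIRI against sham.

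In bulk tissue, fewer cells of a type and less RNA per cell cannot be told apart. Of the 10 cardiomyocyte markers 1, Mybpc3, was called lower in the reperfused mice, with a log2 fold change of -0.84, and the other 9 were not called. The log2 fold change was below 0 for 8 of the 10 and above 0 for 2. Their median was -0.39, beside 0.0076 over all genes tested. The markers summed to 45458 to 48178 CPM in sham, 31229 to 48992 CPM in MIRI and 32966 to 39824 CPM in GXNI mice, and none was at 0. In the library labelled MIRI 2 the sum was 48992 CPM, above every sham library, with Actc1 at 8824 CPM (4118 to 5503 CPM in sham). Actc1, Tnnt2 and Ryr2 were above every sham library there, Myh6, Myl2 and Mybpc3 were below, and the other markers lay within the sham range. The mean log2 level of the markers was 11.80 in MIRI 2 and 11.71 to 11.81 in sham. Adra1a stood at 12.3 CPM in MIRI 2, below every sham library. The part of cardiomyocyte number in the Adra1a difference was not tested.

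Adra1b, on the reverse strand of chromosome 11 (43774606 to 43901210), encodes the alpha-1B receptor and was not called in any comparison. Its level was 34.8, 20.4 and 35.1 CPM in sham, 19.1, 56.1 and 18.2 CPM in MIRI, and 47.7, 26.5 and 12.4 CPM in GXNI mice. The sham values lay inside the range of the reperfused ones, whose highest values were in MIRI 2 and GXNI 1. The log2 fold change was 0.05 (standard error 0.47) in MIRI and -0.05 (standard error 0.47) in GXNI against sham. Without the library labelled MIRI 2 it was -0.68 in MIRI against sham (unadjusted p = 0.0224). Per kilobase of exon, the ratio of Adra1a to Adra1b was 0.360, 0.600 and 0.266 in sham mice, 0.155, 0.0849 and 0.0711 in MIRI and 0.118, 0.118 and 0.152 in GXNI mice. The ratio was below the sham range in each of the 6 reperfused libraries, those labelled MIRI 2 and GXNI 1 included. Adra1a alone was below all sham libraries too, and no share of gene pairs that separate in this way is given.

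Adrb1, on the forward strand of chromosome 19 (56722199 to 56733113), encodes the beta-1 receptor, the main beta receptor of heart muscle. Its level was 16.3, 19.1 and 27.4 CPM in sham, 13.2, 20.3 and 10.8 CPM in MIRI, and 15.1, 21 and 13.5 CPM in GXNI mice. The groups overlapped and no comparison was called, with log2 fold changes of -0.50 (standard error 0.29) in MIRI and -0.33 (standard error 0.26) in GXNI against sham. Without the library labelled MIRI 2 the first of these was -0.80, with an unadjusted p of 0.0107, again outside the threshold.

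**Figure D1:**
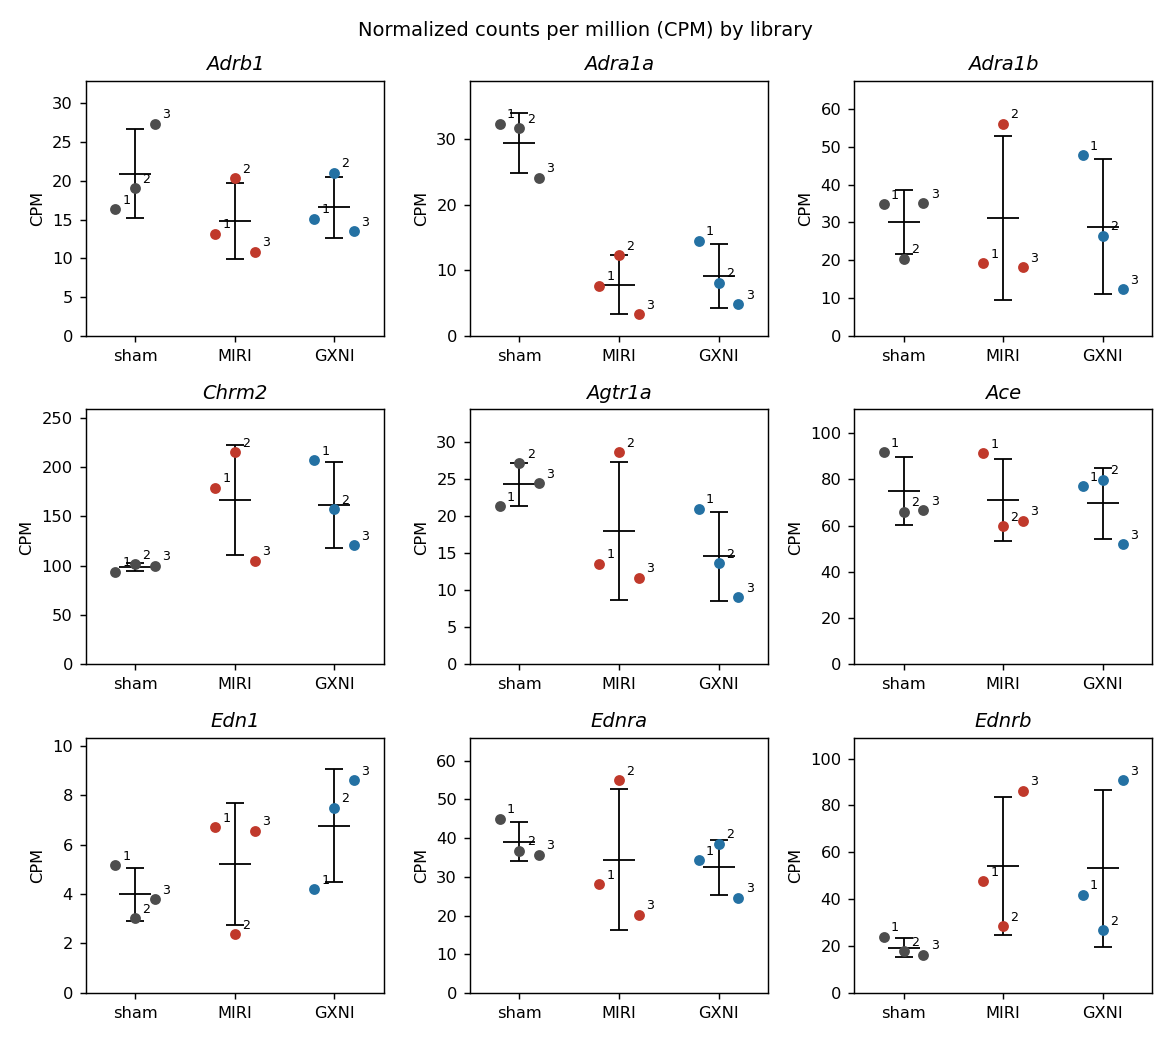
Level of the 9 members in CPM (vertical axes, each from 0) in the 3 sham, 3 MIRI and 3 GXNI libraries, with points numbered by replicate and bars giving the mean and SD. Adra1a was between 3.34 and 14.5 CPM in the reperfused libraries and between 24.1 and 32.3 CPM in sham, whereas Chrm2 and Ednrb lay above their sham values in all 6.

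Chrm2, the muscarinic receptor of the M2 type, had the highest mean level per kilobase of the members and was higher after reperfusion. It lies on the forward strand of chromosome 6 (36388084 to 36528414). Its level was 94.0, 102 and 100 CPM in sham, 179, 215 and 105 CPM in MIRI, and 207, 157 and 121 CPM in GXNI mice. All reperfused libraries were above all sham libraries, with the highest values in MIRI 2 and GXNI 1 and with MIRI 3 within 4 CPM of the highest sham library. The mean was 98.6 ± 4.08 CPM (SD, n = 3) in sham, 167 ± 56.1 CPM (SD, n = 3) in MIRI and 162 ± 43.3 CPM (SD, n = 3) in GXNI mice. The log2 fold change over the 6 reperfused libraries was 0.74 (standard error 0.23, unadjusted p = 0.00971, adjusted p = 0.0986 by edgeR's quasi-likelihood test with Benjamini-Hochberg adjustment), and the exact permutation test over libraries gave p = 0.0357. GXNI mice were called higher than sham (0.72, standard error 0.20, unadjusted p = 0.00918), and MIRI mice were not (0.76, standard error 0.25, unadjusted p = 0.0191), although both differences were of like size. These 2 comparisons share their sham libraries, and GXNI against MIRI was not called (-0.04). The call depended on single libraries. It was made in MIRI against sham without MIRI 3 (0.997, unadjusted p = 0.000288), and in GXNI against sham it was lost without any 1 library other than GXNI 3 (0.51 to 0.74). Over the 6 libraries it was lost without any 1 of sham 1 to 3, MIRI 1, MIRI 2, GXNI 1 and GXNI 2 (0.64 to 0.75), and it held without MIRI 2 and GXNI 3 together (0.72, unadjusted p = 0.00931). With DESeq2 the adjusted p over the 6 libraries was 0.0288.

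The lincRNA 9330158H04Rik overlaps Chrm2 on the opposite strand and was counted 196 to 565 times per library, at most 20.7% of the Chrm2 count of the same library. The strand setting of the counting is not given in the sources used here, so reads of this region cannot be told apart. Chrm2 is expressed in atria as well as ventricles. Of the 6 atrial markers, 4 were tested and 0 were called over the 6 reperfused libraries (1 in MIRI against sham, Nppa, which ventricles also express under load), and Myl7, Sln and Bmp10 were at 0 in some libraries. Their sum was 42.0 to 85.8 CPM in sham and 59.3 to 730 CPM in the reperfused libraries, and most of it was Nppa (165 of 186 CPM in MIRI 2 and 54.3 of 59.3 CPM in GXNI 1). The other atrial markers above 1 CPM were highest in MIRI 2, the library with the most Chrm2. There Myl7 was at 1.78, Myl4 at 3.503, Sln at 1.37 and Dkk3 at 14.8 CPM, beside at most 0.698, 1.24, 0.248 and 1.86 CPM in sham. The mean log2 level of the atrial markers was 1.81 in MIRI 2 and between -1.30 and -0.24 in the other 8 libraries. In GXNI 1, with the next highest Chrm2, it was -0.61, and Dkk3 was at 3.35 CPM. Their part in the Chrm2 difference was not tested. Per kilobase, the ratio of Chrm2 to Adrb1 was 2.04 to 3.22 in sham mice, 7.59, 5.93 and 5.42 in MIRI and 7.64, 4.18 and 4.98 in GXNI mice, with every reperfused library above the sham range. Chrm2 alone was above all sham libraries too, so the ratio is a description.

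Neither member of the angiotensin system was called in the 4 comparisons. Agtr1a, the receptor for angiotensin II, lies on the forward strand of chromosome 13 (30336441 to 30382867). Its level was 21.4, 27.2 and 24.5 CPM in sham, 13.6, 28.7 and 11.7 CPM in MIRI, and 21, 13.6 and 9.11 CPM in GXNI mice. Every GXNI library was below every sham library, GXNI 1 by less than 1 CPM, and the library labelled MIRI 2 was the highest of all. The log2 fold change was -0.44 (standard error 0.34) in MIRI and -0.73 (standard error 0.30, unadjusted p = 0.0444) in GXNI against sham. Without the library labelled MIRI 2, Agtr1a was called lower in MIRI than in sham mice (-0.94, unadjusted p = 0.000363, adjusted p = 0.00265 by edgeR's quasi-likelihood test), and it was called lower in GXNI without GXNI 1 (-1.08, unadjusted p = 0.00227). The share of all genes called in these reduced fits is not given here, so the calls are not read as particular to Agtr1a. Over the reperfused libraries it went from -0.58 (unadjusted p = 0.0980) to -0.70 (unadjusted p = 0.00993) without the libraries labelled MIRI 2 and GXNI 3. The paralog Agtr1b was counted 0 times in every library, and reads that match both genes may have been left out by the counting.

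Ace, on the forward strand of chromosome 11 (105967945 to 105989964), encodes the angiotensin-converting enzyme. Its level was 91.8, 66.1 and 66.6 CPM in sham, 91.3, 59.7 and 62.0 CPM in MIRI, and 77.0, 79.8 and 52.0 CPM in GXNI mice. The groups overlapped throughout. The log2 fold change was -0.07 (standard error 0.22) in MIRI and -0.10 (standard error 0.22) in GXNI against sham, and its sign depended on the library left out.

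Ednrb, the endothelin receptor of type B, which is abundant on endothelial cells, was the member with the largest rise after reperfusion. It lies on the reverse strand of chromosome 14 (103814625 to 103844402). Its level was 24, 17.9 and 16.2 CPM in sham, 47.6, 28.4 and 86.4 CPM in MIRI, and 42.0, 26.7 and 90.7 CPM in GXNI mice. All reperfused libraries were above all sham libraries, with the highest values in MIRI 3 and GXNI 3 and the lowest in MIRI 2 and GXNI 2. The mean was 19.4 ± 4.09 CPM (SD, n = 3) in sham, 54.1 ± 29.5 CPM (SD, n = 3) in MIRI and 53.1 ± 33.4 CPM (SD, n = 3) in GXNI mice. Compared with sham, Ednrb was 2.81-fold higher in MIRI mice (log2 fold change 1.49, standard error 0.40, unadjusted p = 0.00736, adjusted p = 0.0950 by edgeR's quasi-likelihood test with Benjamini-Hochberg adjustment). GXNI mice had a log2 fold change of 1.47 (standard error 0.44) but an unadjusted p of 0.0136, outside the threshold. Over the 6 reperfused libraries it was 1.47 (standard error 0.43, unadjusted p = 0.00696), with p = 0.0357 in the exact permutation test over libraries. The call in MIRI against sham was kept without MIRI 2 (1.80, adjusted p = 0.00191 by edgeR's test) and lost without any other of the 6 libraries, the lowest value being 0.97 without MIRI 3. In GXNI against sham Ednrb was 0.83 without GXNI 3, and it was called without GXNI 2 (1.79, unadjusted p = 0.00323). The call over 6 libraries was lost without sham 1 (1.65), sham 2 (1.41), sham 3 (1.36), MIRI 1 (1.51), MIRI 3 (1.28) or GXNI 3 (1.26), and it held without MIRI 2 and GXNI 3 together (1.39, standard error 0.37, unadjusted p = 0.00560). With DESeq2 the adjusted p was 0.00567 in MIRI against sham and 0.0101 over the 6 libraries, and Ednrb was called in GXNI against sham too.

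Of the 8 endothelial markers, 0 were called in the reperfused mice and none was at 0. They summed to 698 to 955 CPM in sham, 941, 743 and 1133 CPM in MIRI and 775, 803 and 1230 CPM in GXNI mice, so the 2 libraries with the most Ednrb also had the most endothelial RNA. The same 2 libraries had 582 and 613 CPM of the neutrophil genes, and the part of either cell type in the Ednrb values was not tested. In GXNI 1 Ednrb stood at 42.0 CPM while the endothelial sum (775 CPM) and the neutrophil sum (47.2 CPM) were within their sham ranges. The 4 markers of endocardium and vessel walls (Npr3, Vwf, Plvap and Nfatc1) were together highest in that same library. They summed to 76.1 to 101 CPM in sham, 106, 162 and 133 CPM in MIRI 1 to 3 and 192, 59.9 and 140 CPM in GXNI 1 to 3, with none at 0. Of the 4, Plvap was called higher in each comparison with sham, and their part in the Ednrb values was not tested.

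Ednra, the type A receptor of smooth muscle and heart muscle, lies on the reverse strand of chromosome 8 (77663031 to 77724464). Its level was 45, 36.7 and 35.7 CPM in sham, 28.0, 54.9 and 20.2 CPM in MIRI, and 34.4, 38.5 and 24.6 CPM in GXNI mice. It was not called in the 4 comparisons (log2 fold change -0.19, standard error 0.35, in MIRI against sham, and -0.26, standard error 0.20, in GXNI against sham). Without the library labelled MIRI 2 it was called lower in MIRI (-0.69, unadjusted p = 0.00495, adjusted p = 0.0166 by edgeR's quasi-likelihood test), again without a share of all genes to set beside it. The transcript 4933431K23Rik, on the opposite strand, was counted at most 11.9% as often as Ednra. Per kilobase, the ratio of Ednrb to Ednra was 0.685, 0.625 and 0.584 in sham, 2.18, 0.663 and 5.48 in MIRI, and 1.57, 0.890 and 4.74 in GXNI mice. Type B transcripts thus exceeded type A transcripts in 4 of the 6 reperfused libraries and in 0 of the 3 sham libraries, and the library labelled MIRI 2 lay within the sham range.

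Edn1, the gene of the endothelin-1 peptide, was counted 40 to 153 times per library. It lies on the forward strand of chromosome 13 (42301476 to 42307990). Its level was 5.15, 3.02 and 3.78 CPM in sham, 6.70, 2.38 and 6.56 CPM in MIRI, and 4.19, 7.49 and 8.59 CPM in GXNI mice. The library labelled MIRI 2 was the lowest of all 9, and GXNI 1 lay among the sham values. The log2 fold change was 0.40 (standard error 0.42) in MIRI and 0.77 (standard error 0.34, unadjusted p = 0.0587) in GXNI against sham, neither past the threshold. Without GXNI 1 the second was 1.02 (unadjusted p = 0.00835) and was called. Without the library labelled MIRI 2 the first was 0.74 (unadjusted p = 0.0195).

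**Figure D2:**
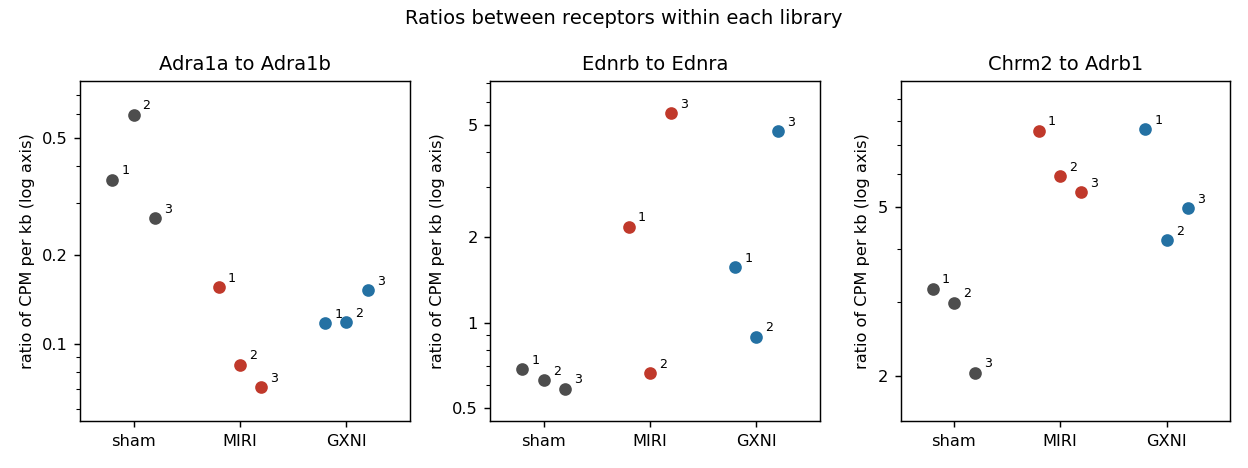
Ratios of CPM per kilobase of exon (vertical log axes) between the alpha-1 receptors, the endothelin receptors, and Chrm2 and Adrb1, in each library, with points numbered by replicate. The ratio of Adra1a to Adra1b was 0.266 to 0.600 in sham and 0.0711 to 0.155 after reperfusion, and that of Ednrb to Ednra reached 5.48 in MIRI 3 and 4.74 in GXNI 3.

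Over the 9 members, MIRI against sham gave 1 gene higher (Ednrb) and 1 lower (Adra1a), beside 6.15% of 14644 genes called higher and 2.82% called lower. GXNI against sham gave 1 higher (Chrm2) and 1 lower (Adra1a), beside 2.67% and 1.54% of 14695 genes. The 6 reperfused libraries against sham gave 2 higher (Chrm2 and Ednrb) and 1 lower (Adra1a), beside 5.52% and 2.85% of 15207 genes. In this last comparison the groups did not overlap for 2 members that were higher and 1 that was lower, beside 8.4% and 8.46% of all genes. No member passed an adjusted p of 0.05 with edgeR, and 0.0137%, 0.0% and 0.0592% of all genes did in MIRI against sham, GXNI against sham and the reperfused libraries against sham. The median log2 fold change of the members was -0.07, -0.10 and -0.09 in these comparisons, beside -0.0015, 0.011 and 0.0076 over all genes tested. With 9 genes a count of 1 or 2 sets the members apart from other genes in neither direction. These shares are from the edgeR fits with all libraries of a comparison. Calls with libraries left out, without a filter or with DESeq2 have no such share beside them and are not set against other genes.

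**Figure D3:**
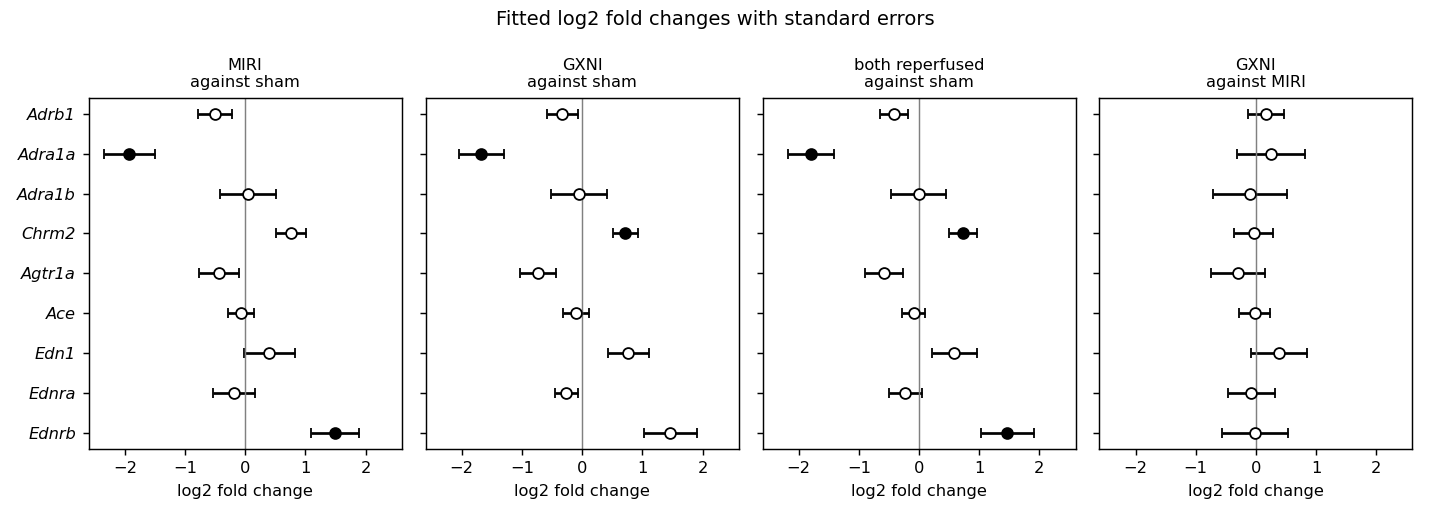
Fitted log2 fold changes of the 9 members (points) with standard errors (bars) in the 4 comparisons, filled where a gene was called. Adra1a was at -1.92, -1.67 and -1.80 in the comparisons with sham, and all 9 members lay between -0.29 and 0.38 in GXNI against MIRI.

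The comparison of GXNI with MIRI mice asks whether the injection changed these genes after reperfusion. Of the 9 members 0 were called higher and 0 lower, beside 0.0% and 0.0203% of 14762 genes, and 0.0% of genes passed an adjusted p of 0.05. The study reported many more genes regulated by GXNI at the same limits, using DESeq2. Why the counts differ was not tested. The possible exchange of library labels described above would change the libraries in both groups, so the results here hold for the groups as labelled. At an unadjusted p under 0.05 there were 29 genes higher and 18 lower among all genes and none among the members. DESeq2 called 0 members as well. The log2 fold changes ran from -0.29 for Agtr1a (standard error 0.45) to 0.38 for Edn1 (standard error 0.46). For the 3 genes called against sham they were 0.25 for Adra1a (standard error 0.57), -0.04 for Chrm2 (standard error 0.33) and -0.02 for Ednrb (standard error 0.55). Each was below its standard error, and standard errors of this size do not show that the groups were alike.

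Without the libraries labelled MIRI 2 and GXNI 3, which leaves 2 against 2, the same comparison had other values. The log2 fold change of Adra1b was then 1.001 (standard error 0.30, unadjusted p = 0.0162). It was 0.60 for Ednra (unadjusted p = 0.0338), 1.04 for Adra1a (unadjusted p = 0.0729) and -0.95 for Ednrb (unadjusted p = 0.0351). Adrb1 stood at 0.60, Agtr1a at 0.47, Chrm2 at 0.37, Ace at 0.04 and Edn1 at -0.17. None of the 9 was past the threshold. Adra1b, Chrm2, Ace, Agtr1a, Edn1 and Ednra had the opposite sign to that with all 6 libraries. These 4 libraries were picked for their similarity, which the members' own values enter, so the values are a description.

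**Figure D4:**
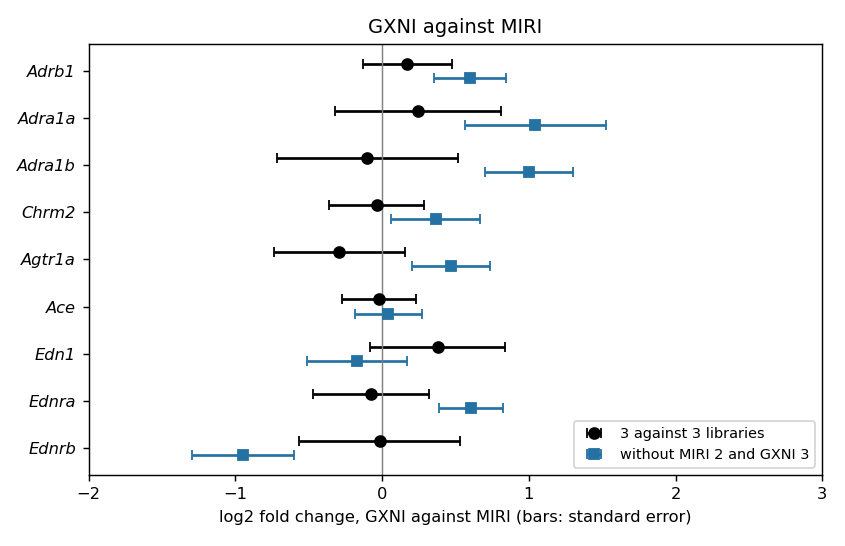
Log2 fold change of each member, GXNI over MIRI mice (horizontal axis, bars give the standard error) with all 6 libraries (circles) and without those labelled MIRI 2 and GXNI 3 (squares). Adra1b went from -0.10 to 1.001 and Ednrb from -0.02 to -0.95.

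Per kilobase of exon, Chrm2 had the highest mean level in sham hearts (16.3 ± 0.675 CPM per kb, SD, n = 3), followed by Ace (14.2 ± 2.78), Adra1b (8.90 ± 2.47), Agtr1a (8.73 ± 1.04), Ednra (7.15 ± 0.930), Adrb1 (6.19 ± 1.70), Ednrb (4.54 ± 0.958), Adra1a (3.36 ± 0.524) and Edn1 (1.86 ± 0.506). Neighbours in this order lay within the sum of their SDs of each other, except for Ace and Adra1b and for Adra1a and Edn1. In MIRI mice Chrm2 (27.5 ± 9.27 CPM per kb) and Ace (13.4 ± 3.33) were again the highest, Ednrb was next (12.7 ± 6.92), and Adra1a was the lowest (0.890 ± 0.513) below Edn1 (2.44 ± 1.148). GXNI mice had Chrm2 (26.7 ± 7.15), Ace (13.2 ± 2.89) and Ednrb (12.5 ± 7.83) at the top in the same way and Adra1a (1.05 ± 0.560) at the bottom. The groups were compared per gene by the tests above, and the order itself was not tested.

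Pairs of members were also compared by their log2 CPM across the 9 libraries. The strongest relation among the 36 pairs was the opposite course of Agtr1a and Edn1 (Pearson r -0.94). Adra1a and Agtr1a went together (r 0.84), as did Agtr1a and Ednra (r 0.79), and Adra1a and Ednrb went opposite ways (r -0.88). Chrm2 was weakly related to Adra1a (r -0.24) and Ednrb (r 0.15). Points of 1 library share its depth and tissue, so these values are descriptions. Among 15191 other genes, those most like Adra1a were Gm48882 (r 0.989), Gm5463 and Cep97, and those most like Ednrb were Apold1 (r 0.988), an early response gene of endothelial cells, Ppp1r15a (r 0.986), a gene of the stress response, and Fjx1. Genes much like Chrm2 included Akap6 (r 0.942), an anchoring protein of protein kinase A in muscle cells, and Gm42892. Genes much like Agtr1a included Gmpr (r 0.984) and Gal3st3. The genes closest to Edn1 were Spns2 (r 0.977), a sphingosine-1-phosphate transporter, Gm15922 and Ppp2r1b, to Ednra Ociad1 (r 0.972), Strip2 and 2310015A10Rik, to Adra1b Rsg1 (r 0.968), Vars2 and Sbk2, to Adrb1 Zfp422-ps (r 0.957), Sh3bgr and Rtp3, and to Ace Smyd4 (r 0.923), Ankrd16 and Tnks.

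Of 87 further genes of these pathways, 72 were tested in the 6 reperfused libraries against sham, and 5 were called higher and 3 lower, beside 5.52% and 2.85% of all genes. Their median log2 fold change was 0.05, beside 0.01 over all genes tested. In MIRI against sham 6 were higher and 2 lower of 71 tested, beside 6.15% and 2.82% of all genes. In GXNI against sham 2 were higher and 0 lower of 71, beside 2.67% and 1.54%, and in GXNI against MIRI 0 of 70 were called, beside 0.0% and 0.0203%. These counts are near the shares over all genes, so nothing particular to these pathways is read from them.

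Among the ligands and their enzymes, Ece1, which cuts the endothelin precursor to the active peptide, was higher in the reperfused libraries (0.65, standard error 0.20, unadjusted p = 0.00843). Its level was 77.4 to 89.3 CPM in sham and 93.8, 130 and 169 CPM as the lowest, median and highest of the reperfused libraries. Of the renin-angiotensin list 0 of 9 genes tested were higher and 2 were lower. These were Mme (-1.33, standard error 0.34), the peptidase neprilysin, which breaks down natriuretic peptides and angiotensin, and Cma1 (-1.29, standard error 0.38), a mast cell chymase that can form angiotensin II. Cma1 was at 1.29 to 1.86 CPM in sham and 0.23 to 1.05 CPM after reperfusion. Ren1 and Agtr2 were counted 0 times in every library and Agt was not called (0.19, standard error 0.30). Of the genes that make, take up or break down catecholamines 0 of 6 tested were called, and Th, for the first enzyme of catecholamine synthesis, had 1 count in all 9 libraries together. Chat and Slc18a3, for acetylcholine synthesis and loading, had 0 counts, which allows up to 3 counts per library by counting error.

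Of the other adrenergic receptors 0 of 4 tested were called. Of the other muscarinic receptors Chrm3 alone passed the filter (1.39, standard error 0.59, not called). The potassium channel subunits that M2 receptors open, Kcnj3 and Kcnj5, were not called (-0.72, standard error 0.68, and -0.38, standard error 0.39). Kcnj3 was at 43.9 to 48.1 CPM in sham, 11.7, 63.8 and 8.36 CPM in MIRI and 53.1, 22.0 and 5.98 CPM in GXNI mice. MIRI 2 and GXNI 1 were thus above the sham range and the other 4 reperfused libraries below it.

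Downstream of the receptors, Rcan1, a regulator of calcineurin that calcineurin signaling induces, had the largest difference of the list genes called (2.23, standard error 0.54, unadjusted p = 0.00204, in the reperfused libraries against sham). Its level was 54.3 to 70.8 CPM in sham, 332, 132 and 439 CPM in MIRI and 94.9, 259 and 537 CPM in GXNI mice. Plcb1, a phospholipase C activated by Gq, was 0.90 higher (standard error 0.18, unadjusted p = 0.000454), with 4.03 to 6.29 CPM in sham and 8.33 to 10.5 CPM in the reperfused libraries. The other 8 genes of the phospholipase C branch were not called. Of 15 genes of the cyclic AMP branch 1 was called, Pde4b, a phosphodiesterase that breaks down cyclic AMP (1.87, standard error 0.50), at 22.4 to 25.1 CPM in sham, 93.6, 43.2 and 134 CPM in MIRI and 35.6, 56.5 and 163 CPM in GXNI mice. Pde4b, which neutrophils also express, and Rcan1 were both highest in MIRI 1, MIRI 3 and GXNI 3, the libraries with 582 to 675 CPM of the neutrophil genes, and both were lowest among the reperfused libraries in GXNI 1 and MIRI 2. The part of neutrophils in either gene was not tested. Of 9 G protein alpha subunits 0 were called over the 6 libraries, and Gnao1 was called in MIRI against sham (0.74, standard error 0.18). Of 12 receptor kinases, arrestins and RGS proteins, Grk5, a kinase that desensitizes adrenergic receptors, was higher (0.95, standard error 0.22, unadjusted p = 0.00162), and Rgs3, which switches G proteins off, was lower (-0.60, standard error 0.16). Grk5 stood at 38.2 to 41.3 CPM in sham, 85.0, 69.3 and 81.3 CPM in MIRI and 44.2, 82.0 and 101 CPM in GXNI mice, with GXNI 1 closest to sham. Ece1, Rcan1, Plcb1, Pde4b and Grk5 were above the sham range in all 6 reperfused libraries, and Mme, Cma1 and Rgs3 were below it. Over all genes 8.4% lay above and 8.46% below in this way, and the genes named here were picked because they were called. Many calls depended on single libraries. Over members and called pathway genes together, 14, 16 and 15 calls in the comparisons with sham were lost without sham 1, 2 or 3. These losses are not given here for each pathway gene. In GXNI against sham Rcan1 (2.23) and Plcb1 (0.91) were the list genes called.

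**Figure D5:**
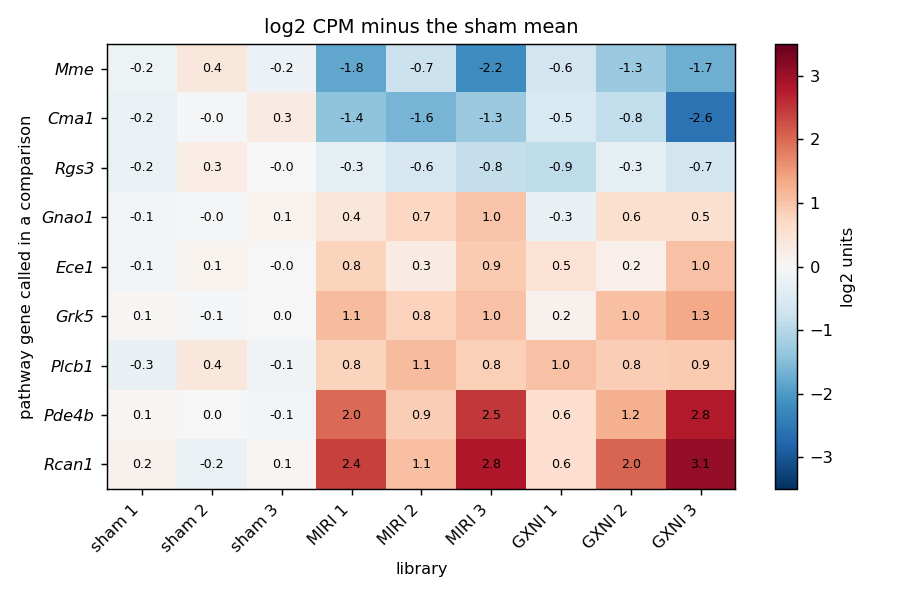
Log2 CPM of the 9 pathway genes called in a comparison, minus the mean of the sham libraries, in each library (color and printed value, log2 units). Rcan1 and Pde4b were highest in GXNI 3, MIRI 3 and MIRI 1, and GXNI 1 and MIRI 2 had the smallest rises of Rcan1.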

How the data were processed

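Hearts of 3 sham, 3 MIRI and 3 GXNI mice were sequenced. The authors extracted total RNA with TRIzol, aligned the filtered reads with HISAT2 (build mm10 in the submitters' processing notes) and counted reads per gene with featureCounts. Versions, annotation release and strand setting are not given in the sources used here. The deposited values are whole-number counts without normalization. Of 54532 identifiers, 54495 were paired with GENCODE M21 symbols (GRCm38), and 0 columns of other samples were used.

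Counts of each comparison were fitted on its own libraries with edgeR 4.0.16 in R 4.3.3 (TMM, filterByExpr, quasi-likelihood F test), with p-values adjusted over all genes tested by the Benjamini-Hochberg method. The standard error is the log2 fold change divided by the square root of F. CPM use TMM factors over 9 libraries, and log2 CPM a prior count of 0.5. Permutation tests were exact and two-sided, and 3 against 3 cannot go below 0.1. The fits were tested on simulated counts. No pair of libraries agreed within sampling noise. The lowest chi-square per degree of freedom was 14.4.

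Members, lists and tests were chosen with earlier results of these data known. Named were all members, called genes of the pathway lists (at most 4 per list, with some that were not called added for their roles after their values were seen), the 3 genes most like each member, and markers. A few genes under this rule are not reported here. Alternatives were DESeq2 1.42.0, no filter, RLE normalization, removal of mitochondrial genes, 1 fit of 9 libraries, a replicate block, an adjusted p of 0.05, and libraries left out. Sequences came from RefSeq. Intervals and floors cover counting error only.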

Additional observations from a re-analysis of the deposited data

How the results depend on the processing

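RLE normalization and leaving out mitochondrial genes kept all calls of members. DESeq2 and the fit without a filter each called 2 members higher (Chrm2 and Ednrb) in MIRI and in GXNI mice against sham. The share of all genes that these 2 fits called is not given here, so the counts are not read as a result about the members. With all 9 libraries in 1 fit 0 members were higher in any comparison with sham, and with an adjusted p of at most 0.05 there were 0 higher and 0 lower in each. The cause of these changes was not tested. Same-numbered libraries of GXNI and MIRI deviated together with correlations of -0.44, 0.13 and 0.70, which showed no common pairing by replicate number. Exchanged labels could hide a pairing, so these values cannot exclude one. With the replicate block 0 members were higher in MIRI and in GXNI against sham, Adra1b was at -0.14 in MIRI against sham and Ednra at 0.029 in GXNI against MIRI. Without the libraries labelled MIRI 2 and GXNI 3, 2 members were lower in the reperfused libraries (Adra1a and Agtr1a) and Ace was at 0.054 there, while in GXNI against MIRI Adra1b was at 1.001, Chrm2 at 0.37, Ace at 0.042, Agtr1a at 0.47, Edn1 at -0.17 and Ednra at 0.60.

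Leaving out 1 library at a time gave 0 to 1 members higher and 0 to 3 lower in MIRI against sham, 0 to 1 higher and 0 to 2 lower in GXNI against sham, and 0 to 1 higher and 1 to 2 lower in the reperfused libraries against sham. In MIRI against sham Adra1b ran from -0.68 to 0.31, Ace from -0.29 to 0.093 and Ednra from -0.69 to 0.074. In GXNI against MIRI Adrb1 ran from -0.039 to 0.47, Adra1a from -0.26 to 0.74, Adra1b from -0.68 to 0.64, Chrm2 from -0.29 to 0.19, Ace from -0.13 to 0.20, Agtr1a from -0.66 to 0.22, Ednra from -0.35 to 0.44 and Ednrb from -0.65 to 0.48. In GXNI against sham Adra1b ran from -0.62 to 0.30 and Ace from -0.21 to 0.073, and in the reperfused libraries against sham Adra1b from -0.28 to 0.16 and Ace from -0.18 to 0.083. Edn1 had the lowest count of the members, 40 in 1 library, and counting error is then part of its spread.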
